A study of Mus musculus with 3 samples.

Results

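The cells described here are the mesenchymal cells with the most Col2a1 RNA in dissociated otic vesicles of mouse embryos at E10.5 (days of embryonic development). The members were chosen by measured values, their UMI counts of the genes named next. Col2a1 encodes the main collagen of cartilage. A cell was taken when it had at least 5 unique molecular identifiers (UMIs, counted RNA molecules) of Col2a1, at least 1 of the mesenchymal factors Twist1 or Prrx1, none of the epithelial gene Epcam, at most 1 summed over the otic genes Fbxo2, Hmx2 and Hmx3, and UMIs of fewer than 4 of the 6 genes Foxd1, Wfdc1, Vtn, Flrt2, Apod and Lix1. Sox9 was kept out of the choice. The rule found 986 cells among 26130 that passed the cell filter (at least 1000 genes and at most 10% mitochondrial UMIs) and among 37301 barcodes. They are called Col2a1-high mesenchyme below.

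The series holds 3 droplet libraries made with a 3′ kit, each from pooled otic vesicles. A single library, CD replicate 1, came from Sox9Y440X/+ embryos, which carry 1 Sox9 allele with a premature stop codon, and 2 libraries, WT replicates 1 and 2, came from wild-type embryos. CD names the heterozygous genotype throughout. The labels do not say how many embryos or litters each pool held, so spread between the WT libraries may be technical, and reads at the 3′ end do not separate the mutant Sox9 transcript from the normal one. With 1 library against 2, no permutation of the labels can give a p below 0.33.

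Cartilage begins when mesenchymal cells gather into condensations and switch on SOX9, which with its partners SOX5 and SOX6 drives Col2a1 and the genes of collagen types IX and XI. In the head, the mesenchyme around the otic vesicle later forms the otic capsule, the cartilage shell of the inner ear. Signals from the otic epithelium, among them FGFs, and Sonic hedgehog from the midline act on this mesenchyme, and the factors Pou3f4 (Brn4) and Tbx1 are known for their roles in it.

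CD replicate 1 held 375 members, WT replicate 1 held 181 and WT replicate 2 held 430. Their summed depth was 9010425, 4255561 and 9004820 UMIs. The median member had 22145 UMIs in CD, 22082 in WT replicate 1 and 19396 in WT replicate 2. Mesenchyme with at most 1 Col2a1 UMI that met every other clause served for comparison (2413 cells, called Col2a1-low), and its cells were shallower, with medians of 13142, 12733 and 8512 UMIs. A deeper cell reaches 5 Col2a1 UMIs more easily, so depth is part of the choice. No 2 libraries shared a barcode among the members. Scrublet marked 4%, 2.21% and 1.63% of members as doublets.

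The label, chondrogenic mesenchyme around the ear, was only partly borne out by markers. UMIs of both Twist1 and Prrx1 were present in 91.5%, 91.2% and 92.1% of members, given in the order CD, WT replicate 1, WT replicate 2, which is the order used throughout. Early cartilage genes were present, but the genes of formed cartilage were at or near 0: Acan (aggrecan) and Chad (chondroadherin) had 0 UMIs in all 3 libraries, Matn1 (matrilin) had 1, 0 and 3, and Comp had 1, 2 and 1. Counts of 0 allow up to 3 UMIs per library. Pou3f4 had a UMI in 39.5%, 52.5% and 42.6% of members, against 0.730%, 1.60% and 1.29% of endothelium-gated cells, whose median depths were 19704, 20229.5 and 16152 UMIs. The sclerotome factor Nkx3-2 had 0 UMIs in each library and Pax1 had 12, 2 and 5.

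Some members carried markers of other cells. At least 1% haemoglobin UMIs, or 3 or more detected markers of endothelium, macrophages, neurons or neural crest and glia, occurred in 32 of 375, 10 of 181 and 57 of 430 members, mostly through neuronal markers (18, 4 and 49 cells). Among Col2a1-low cells these made up 36.6%, 26.3% and 32.5%. Results are therefore also given for strict classes, from which such cells were removed and in which both Twist1 and Prrx1 were required. This left 317, 158 and 350 high and 360, 166 and 548 low cells. The summed level of 8 endothelial markers then ranged from 9.28 to 10.6 CPM in the high class and reached 11.5 CPM in CD and 15.3 CPM in WT replicate 1 in the low class. CPM, the counts of a gene scaled to the total UMIs of all cells of that class in a library, is used for levels throughout.

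Col2a1 itself, which chose the cells, is given as a description. The median member had 7, 6 and 6 Col2a1 UMIs and the highest 34, 24 and 21. Many members sat at the edge: 29.9%, 34.3% and 36.7% had exactly 5 UMIs, and another 156, 81 and 224 cells just missed with 4. Members with at least 10 numbered 61, 28 and 46. Sox9 on either side of the limit was 337, 294 and 224 CPM with 4 Col2a1 UMIs and 305, 234 and 263 CPM with 5. Col2a1 declined without a gap over the cells of each library, as the plot of Col2a1 per cell shows.

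**Figure D1:**
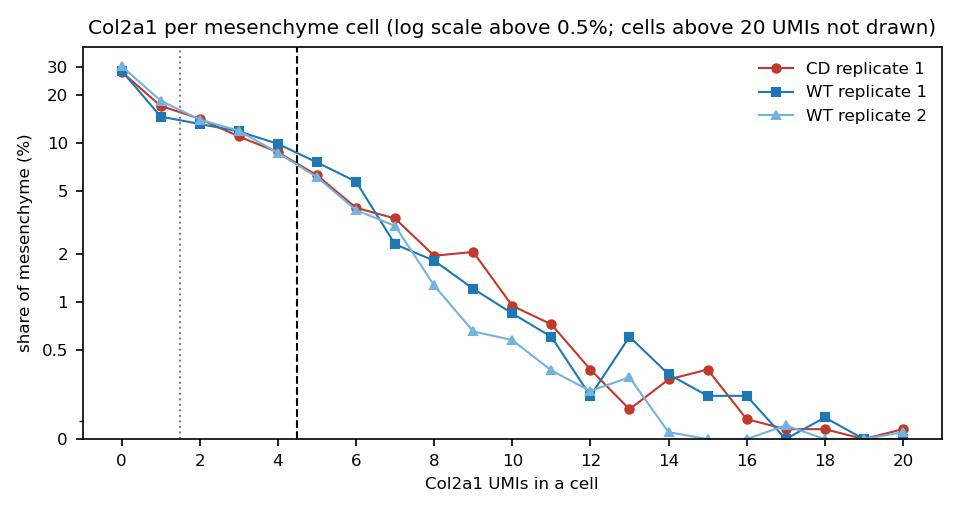
Share of mesenchyme cells (percent, vertical axis, logarithmic above 0.5%) against the number of Col2a1 UMIs in a cell (horizontal axis) for each library. The dashed line marks the limit for members at 5 UMIs and the dotted line the upper limit of the Col2a1-low class; the 3 curves pass the limit without a gap, with 112, 62 and 158 cells at exactly 5.

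Col2a1-high cells made up 21.0% of mesenchyme in CD (exact 95% interval 19.2 to 23.0), 22.1% in WT replicate 1 (19.3 to 25.1) and 16.7% in WT replicate 2 (15.2 to 18.2). CD lay between the WT libraries. Cells were then thinned to 5000 UMIs with the limit set at 2, which left out 223, 118 and 581 shallower mesenchyme cells, and the shares were 20.4%, 21.5% and 21.7% of 1560, 702 and 2000 cells. Over the same cells without thinning, at the limit of 5, they were 24.0%, 25.8% and 21.3%. WT replicate 2 was the lowest library without thinning and the highest with it. The intervals cover counting error only.

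Sox9, the master factor of cartilage and the gene mutated in CD, had a UMI in 98.1%, 93.4% and 92.6% of members. After thinning to 5000 UMIs the shares were 79.2% (interval 74.7 to 83.2), 65.2% (57.8 to 72.1) and 66.2% (61.5 to 70.7), against 7.46%, 2.15% and 5.56% of endothelium-gated cells. Summed Sox9 was 383 CPM in CD and 278 and 270 CPM in the WT libraries, a WT mean of 274 ± 5.95 (SD, n = 2). CD was the higher library, outside the WT pair. The edgeR quasi-likelihood test gave a log2 fold change of 0.46 (SE 0.15) with a Benjamini-Hochberg adjusted p = 0.643 over 13072 genes, which does not pass. Along the Col2a1 classes, Sox9 was 116, 116 and 96.0 CPM in low cells, 279, 249 and 200 in cells with 2 to 4 Col2a1 UMIs, and highest in the members of each library. In the strict classes the gap was smaller: 410, 283 and 285 CPM in high cells against 239, 206 and 156 in low cells, with no overlap.

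The partners of SOX9 behaved unevenly. Sox5 was 32.6, 40.2 and 40.1 CPM in members and 15.6, 18.9 and 23.8 CPM in low cells, and the strict classes did not overlap either (35.0, 39.9 and 42.3 against 20.2, 27.1 and 28.8). Sox6 was 21.8, 20.7 and 28.5 CPM in members against 7.51, 13.1 and 10.8 in low cells, but its strict classes overlapped (23.3, 21.5 and 28.5 against 16.4, 25.6 and 19.3). Sox8, a close relative of Sox9, was sparse at 6.55, 5.64 and 7.88 CPM, and its strict classes did not overlap. With Sox9 and Sox5, it made 3 of the 5 SOX genes higher without overlap in strict high cells, as were 17.8% of all genes. Sox10, a gene of otic epithelium and neural crest, was 3.33, 3.99 and 6.55 CPM in members and 17.9, 23.5 and 26.1 CPM in low cells; its strict classes, at 1.79, 3.03 and 4.22 against 2.11, 2.95 and 5.59, overlapped. None of the 5 SOX genes passed the CD against WT test.

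**Figure D2:**
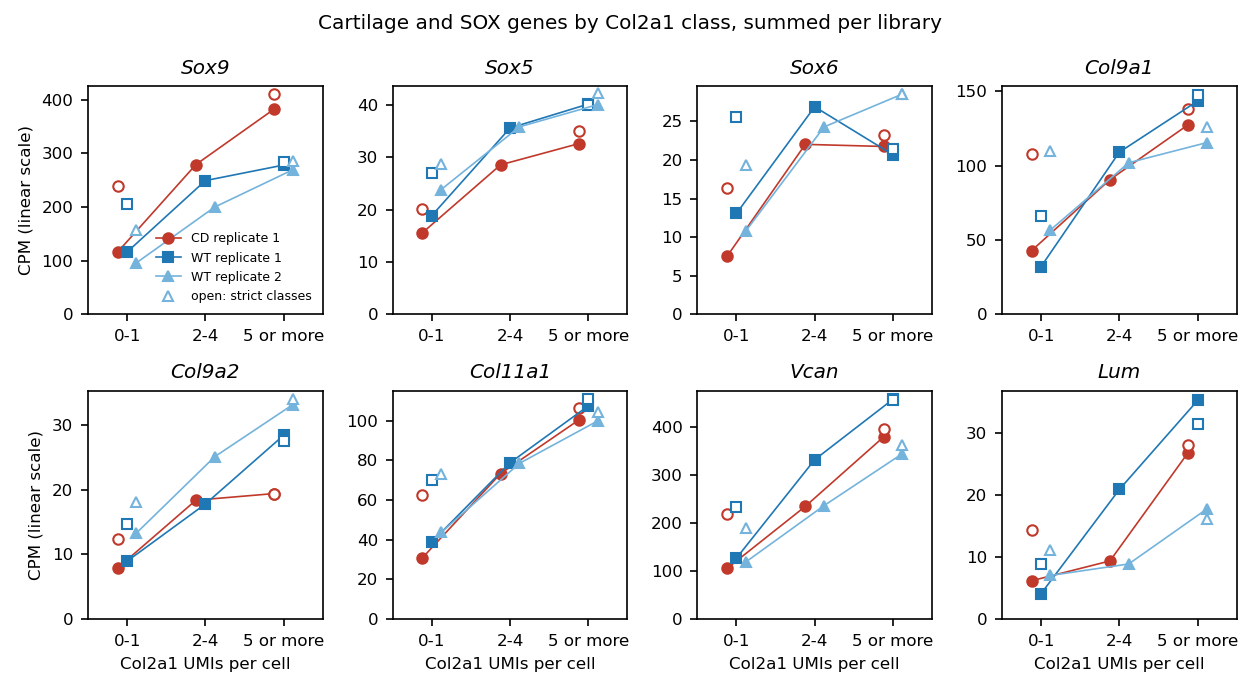
Summed level (CPM, linear axis from 0) of 8 genes in mesenchyme with 0 to 1, 2 to 4 and 5 or more Col2a1 UMIs per cell; 1 filled point per library and class, joined by lines, and open points for the strict classes at both ends. Sox9, Sox5, Col9a1, Col9a2, Col11a1, Vcan and Lum were higher in high than in low strict cells in every library, while the open points of Sox6 overlapped between classes.

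The collagens that are laid down with type II collagen went with Col2a1. Col9a1, a chain of collagen IX, was 128, 144 and 116 CPM in members and 42.9, 32.1 and 56.8 CPM in low cells. Col11a1, a chain of collagen XI that nucleates the fibrils, was 100.3, 107 and 99.8 CPM in members and 30.8, 38.8 and 43.7 CPM in low cells. Col9a2 was 19.4, 28.4 and 33.2 CPM against 7.91, 8.96 and 13.3. Without Col2a1, which the rule used, 4 of the 5 collagens measured at 5 CPM or more had all 3 high sums above all 3 low sums. That was also true of 40.4% of the 10320 genes at this level, so the wide contrast by itself says little about cartilage. In the strict classes 3 of the 5 did not overlap (Col9a1, Col9a2 and Col11a1), where 17.8% of genes were higher without overlap. Col9a1 there was 139, 148 and 126 CPM against 108, 66.5 and 110, and Col11a1 was 107, 111 and 104 CPM against 62.4, 69.9 and 72.9. Col9a3 (8.66, 7.75 and 17.8 CPM in members) and Col27a1 (21.6, 15.0 and 20.1) overlapped between the strict classes. These values describe the classes, which differ by the choice of cells, and carry no test.

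Of the cartilage matrix proteins, 5 of 24 reached 5 CPM. Vcan, which encodes versican, a large proteoglycan of early condensations, was 380, 458 and 345 CPM in members and 106, 127 and 119 CPM in low cells, and 397, 456 and 363 against 220, 234 and 189 CPM in the strict classes. Lum (lumican, a small proteoglycan that binds collagen fibrils) was 26.9, 35.2 and 17.8 CPM against 6.18, 4.11 and 7.04, and in the strict classes 28.1, 31.4 and 16.2 against 14.3, 8.86 and 11.2. Hapln1, the link protein that ties proteoglycans to hyaluronan, ran the other way in all cells: 7.21, 16.2 and 8.44 CPM in members and 25.0, 47.2 and 18.3 in low cells. In the strict classes Hapln1 was higher in the high cells (4.55, 8.26 and 5.34 against 3.52, 3.94 and 4.07), so its direction differed between all cells and the strict classes. Bgn (biglycan) was 44.9, 35.0 and 37.9 CPM and Edil3 was 6.88, 10.1 and 9.55 CPM in members, and neither separated the strict classes.

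Regulators around SOX9 followed. Of 17 chondrogenic cofactors and regulators at 5 CPM or more, 8 were higher without overlap in strict high cells (background 17.8%) and 0 lower (background 6.75%). Foxc1 and Foxc2 encode forkhead factors needed for head skeleton, and Foxc1 was 64.6, 78.0 and 46.3 CPM in members. Foxc2 was 25.2, 28.2 and 11.4 CPM in all members and 6.57, 7.38 and 4.92 in strict low cells, which were filtered further than the members. Foxp1 was 142, 166 and 107 CPM and Foxp2 was 87.0, 89.1 and 68.9 CPM in members, against 72.8, 81.9 and 69.2 and 24.9, 27.6 and 28.9 in low cells. Creb3l2, a factor that raises secretory capacity in chondrocytes, was 53.5, 50.1 and 44.6 CPM in strict high and 39.9, 37.4 and 32.9 CPM in strict low cells. Wwp2, a ubiquitin ligase gene that hosts a cartilage microRNA, was 26.6, 30.3 and 25.4 against 19.5, 22.6 and 17.6 CPM.

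The transcription factors of head mesenchyme did not move as a block. Of 34 at 5 CPM or more and outside the rule, 9 were higher and 4 lower without overlap in the strict classes, where 17.8% of all genes were higher and 6.75% lower. These 2 shares are the background for every count in the strict classes below. The higher ones included Pou3f4, Tbx1, Ebf1, Zeb1, Six2, Six4, Eya1 and Foxf2. Pou3f4 was 66.8, 89.5 and 94.0 CPM in strict high and 45.5, 41.8 and 37.0 in strict low cells. Tbx1 was 61.6, 71.3 and 35.0 against 14.8, 19.7 and 13.9 CPM. Foxf2, a target of hedgehog signalling in head mesenchyme, was between 5.34 and 11.7 CPM against 1.19 to 1.48 CPM, and Six2 was 30.3, 36.9 and 31.6 against 15.9, 23.1 and 18.0 CPM. The lower ones were Msx1, Msx2, Tbx2 and Lmx1b. Msx1, a homeobox gene of mesenchyme under BMP signalling, was 103, 53.7 and 103 CPM in strict high and 112, 116 and 130 in strict low cells, and Msx2 was 34.6, 13.8 and 29.5 against 55.8, 62.5 and 59.2 CPM. The general mesenchyme genes Twist1 (498, 485 and 469 against 495, 530 and 510 CPM) and Prrx1 (488, 332 and 496 against 618, 461 and 526), both used by the rule, were not higher in the strict high class. Prrx2 (377, 321 and 344 against 412, 347 and 384 CPM) overlapped between the classes.

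The members were not uniform, and their factors fell into sets found in the same cells. Cells with a UMI of Foxc2 (96, 57 and 58 members) also had Tbx1 in 85.4%, 82.5% and 65.5% of cases, against 25.4%, 35.5% and 24.2% of members without Foxc2. Tbx18, a T-box gene of mesenchyme around the otic vesicle, was in 60.4%, 43.9% and 39.7% of Foxc2-positive members and in 7.17%, 20.2% and 3.23% of the others. Pou3f4 was in 65.4%, 68.1% and 69.5% of members with Tbx1 and in 21.6%, 36.7% and 31.1% of members without it. Tbx1 is also a gene of vessels here, with a UMI in 53.3%, 58.0% and 48.4% of endothelium-gated cells, while Tbx18 had one in 0%, 1.06% and 1.29% of them. The pairs were in the same direction in all 3 libraries. These shares are of cells at full depth, and a deeper cell shows a UMI of either gene more easily.

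Another set was marked by Msx1, which had a UMI in 140, 43 and 176 members. Alx4, a homeobox gene of the head skeleton, was in 63.6%, 60.5% and 44.9% of these and in 19.6%, 19.6% and 16.5% of the others. Pou3f4 was in 15.0%, 18.6% and 16.5% of Msx1-positive members and in 54.0%, 63.0% and 60.6% of Msx1-negative ones. Tbx1 was in 15.7%, 27.9% and 11.4% against 55.7%, 57.2% and 42.5%, and Foxc2 in 6.43%, 9.30% and 2.84% against 37.0%, 38.4% and 20.9%. The direction of these pairs was the same after thinning to 5000 UMIs: Tbx1 was then in 3.57%, 9.52% and 4.81% of Msx1-positive and 29.2%, 25.6% and 17.1% of Msx1-negative members. Six2 in cells with Pou3f4 (57.4%, 55.8% and 50.3% against 29.5%, 37.2% and 30.8%) kept its direction in CD and WT replicate 2 after thinning, but not in WT replicate 1 (13.3% against 14.9%). The shares describe co-occurrence in cells of 1 library and carry no test. The pairs were singled out after their values were seen. The limit on the Foxd1 set took out 224, 174 and 196 cells that met every other clause, so part of the Foxd1-rich mesenchyme lies outside the members.

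**Figure D3:**
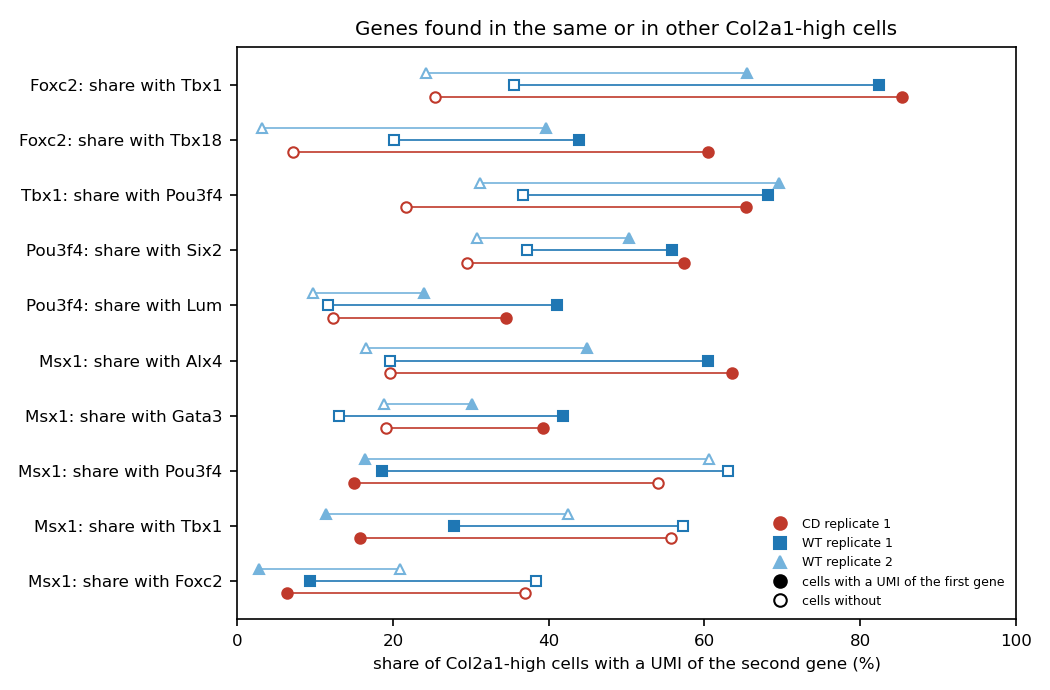
Share of Col2a1-high cells with a UMI of a second gene (percent) among cells with a UMI of the first gene (filled) and without (open), for 10 gene pairs and each library. Filled points lie right of open points for the upper 7 pairs and left of them for Msx1 with Pou3f4, Tbx1 or Foxc2, in all 3 libraries.

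Within the members the same axis ran along Col2a1. Members with 10 or more Col2a1 UMIs (61, 28 and 46) were compared with those with 5 to 9 (314, 153 and 384); 9.13% of the 10320 genes were higher and 4.59% lower without overlap. Among collagens other than Col2a1, 4 of 5 were higher, with a median log2 ratio of 0.67 against 0.04 over all genes. Col9a1 was 192, 225 and 173 CPM in the upper band and 112, 127 and 108 in the lower. Tbx1 was 144, 164 and 93.5 against 44.8, 56.6 and 26.9 CPM, Foxc2 was 57.9, 62.5 and 36.8 against 17.2, 21.2 and 8.05, and Pou3f4 was 112, 171 and 139 against 48.8, 73.3 and 79.8. Prrx1, part of the rule, was lower, at 291, 128 and 321 CPM against 478, 328 and 479. Msx1 was 64.7, 2.78 and 46.3 against 103, 70.7 and 100.3 CPM. WT replicate 1 had almost no Msx1 in its 28 upper-band cells. Sox9 was 477, 353 and 301 against 360, 263 and 265 CPM, which is higher within each library, but the libraries overlapped; in cells thinned to 5000 UMIs the Sox9 log2 ratio of WT replicate 1 turned to -0.08. None of the 5 SOX genes separated the bands.

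**Figure D4:**
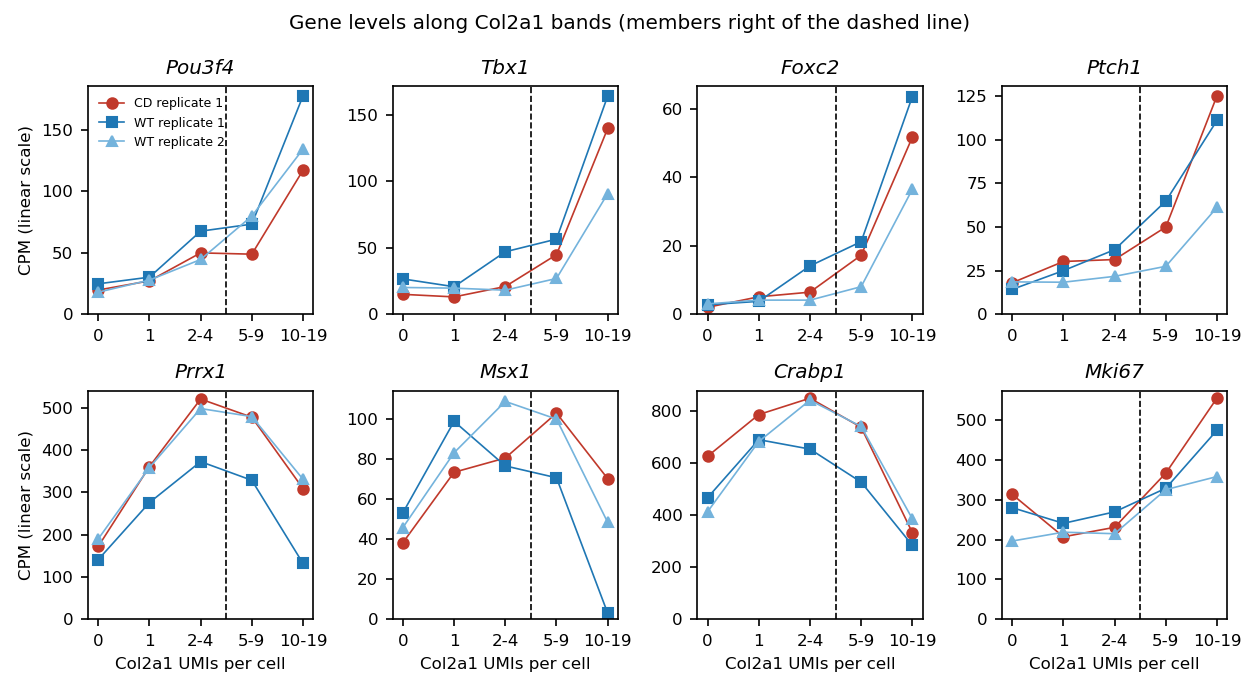
Summed level (CPM, linear axes from 0) of 8 genes in mesenchyme cells with 0, 1, 2 to 4, 5 to 9 and 10 to 19 Col2a1 UMIs, 1 line per library; bands right of the dashed line are members. Tbx1 reached 140, 164 and 90.8 CPM at 10 to 19 UMIs, while Prrx1, Msx1 and Crabp1 were lower there than at 5 to 9.

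Hedgehog genes were among those that went with Col2a1. Ptch1, the receptor that is also a direct read-out of hedgehog signalling, was 68.5, 73.8 and 32.9 CPM in strict high and 29.1, 22.2 and 18.8 CPM in strict low cells, and within the members it was 140, 122 and 73.6 CPM in the upper band against 49.9, 64.8 and 27.4. The effector Gli1, also a read-out of the pathway, was 17.0, 12.5 and 13.2 CPM in the upper band against 6.07, 7.07 and 4.78. Of 10 hedgehog genes at 5 CPM or more, 6 were higher in strict high cells and 0 lower (17.8% and 6.75% of all genes). Within the members 4 were higher and 3 lower (9.13% and 4.59% of all genes): Gli3, mostly a repressor, and the co-receptors Cdon and Gas1 were lower. Gas1 was 173, 79.2 and 146 CPM in the upper band and 272, 235 and 273 in the lower.

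FGF genes showed a like count, with 7 of 14 higher and 0 lower in strict high cells (17.8% and 6.75% of all genes). The transcription factors Etv4 and Etv5, induced by FGF signals, were 21.4, 22.9 and 29.0 CPM against 12.7, 12.3 and 14.9 (Etv4) and 35.4, 31.7 and 39.9 against 16.2, 18.2 and 23.6 (Etv5). Dusp6, the phosphatase that limits the same pathway, was 42.2, 41.3 and 31.1 against 23.7, 30.5 and 20.3 CPM. The receptor Fgfr1 was 99.9, 87.9 and 89.5 against 78.6, 57.6 and 66.4 CPM.

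Retinoic acid genes differed with the cells compared. Of 9, 5 were higher and 0 lower in all cells (40.4% and 12.6% of all genes), while 0 were higher and 2 lower in strict high cells (17.8% and 6.75%), and between the bands 1 was higher and 3 lower (9.13% and 4.59%). The 2 lower ones in the strict classes encode retinoic acid binding proteins: Crabp1 at 649, 506 and 744 against 966, 871 and 981 CPM and Crabp2 at 244, 212 and 287 against 369, 292 and 379. Within the members Crabp1 was 311, 276 and 382 CPM in the upper band and 739, 527 and 742 in the lower.

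Wnt genes were mixed, with 7 of 24 higher and 2 lower in strict high cells (17.8% and 6.75% of all genes), and 3 higher and 6 lower in the upper band of members (9.13% and 4.59%). The lower count in the strict classes was near its background. The receptors Fzd1, Fzd2 and Fzd7 and the factor Lef1 were higher, with Fzd2 at 240, 262 and 237 against 206, 215 and 191 CPM. The secreted feedback inhibitor Notum (5.65, 6.06 and 5.06 against 7.97, 10.3 and 6.95 CPM) and the intracellular inhibitor Nkd1 (21.9, 22.9 and 24.3 against 38.5, 39.4 and 31.2 CPM) were lower. Within the members Wnt5a, a ligand of non-canonical signalling, was 68.1, 20.8 and 72.7 CPM in the upper band against 130, 87.7 and 102 in the lower. Of 23 BMP and TGF-beta genes 6 were higher and 1, the BMP target Id1 (379, 386 and 386 against 445, 435 and 407 CPM), was lower. The BMP and activin antagonist Fst (follistatin) was 38.0, 58.7 and 13.4 CPM in strict high and 11.3, 13.8 and 2.88 CPM in strict low cells, so WT replicate 2 was low in both classes. Of 12 IGF and PDGF genes 2 were higher and 0 lower, and the higher count was near its background. The higher ones were the receptor Igf1r (186, 161 and 123 against 106, 91.6 and 82.0 CPM) and the ligand Pdgfc (18.9, 18.5 and 21.9 against 13.6, 9.84 and 15.8 CPM).

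Genes that fold collagen were near the background. Of 29 genes of collagen folding and secretion, 6 were higher and 1 lower in the strict classes (17.8% and 6.75% of all genes). The higher ones included Plod2, which hydroxylates collagen lysines (54.8, 54.8 and 41.3 against 27.0, 33.0 and 28.6 CPM), and P4ha1, which hydroxylates prolines (59.7, 55.4 and 50.3 against 48.3, 44.3 and 37.0 CPM). Of 19 genes of glycosaminoglycan synthesis and sulfation 5 were higher and 0 lower, among them the hyaluronan synthase Has2 at 19.7, 21.5 and 13.1 against 7.74, 11.3 and 7.80 CPM. Of 10 bone and perichondrium genes 1 was higher (Col12a1) and 1 lower (Sparc), and the bone factors Runx2 and Sp7 had 4, 0 and 5 and 10, 1 and 6 UMIs in members.

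Some proliferation genes were higher in members. Mki67 was 405, 367 and 336 CPM in strict high and 181, 218 and 175 CPM in strict low cells, and Top2a was 783, 733 and 707 against 390, 507 and 401 CPM. Of 34 cell cycle genes 12 were higher and 2 lower in the strict classes (17.8% and 6.75% of all genes), and within the members 14 were higher and 6 lower in the upper band (9.13% and 4.59%). The genes lower in that band included Pcna (172, 174 and 185 against 221, 201 and 205 CPM), Mcm6 and Cdc6, which serve DNA replication, and the higher ones included Top2a, Ccnb1 (228, 210 and 168 against 130, 146 and 140 CPM) and others of late cycle. A cell in late cycle holds more RNA, and upper-band cells were deeper: members with 10 to 19 Col2a1 UMIs had medians of 25652, 23320 and 20629.5 UMIs, against 20920.5, 21793 and 19298 for those with 5 to 9. The part of depth in these differences was not tested. At 5000 UMIs per cell, Mki67 was detected in 67.2%, 77.3% and 62.7% of members and 47.3%, 56.7% and 43.0% of low cells.

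Ranked over all genes by the smallest of the 3 log2 ratios of high to low cells, the leading genes apart from Col2a1 were Fst, Col25a1, Foxc2, Vcan, Pou3f4, Cped1, Six2 and Ntng1. Col25a1, a transmembrane collagen, was 29.2, 29.4 and 29.2 CPM in members against 5.95, 7.47 and 8.81 in low cells, and 30.3, 28.4 and 27.0 against 10.8 to 11.9 in the strict classes. Ntng1, a membrane-bound netrin, was 42.5, 55.2 and 26.5 CPM against 9.24, 11.4 and 9.91. The 15 genes most strongly lower in members were mostly markers of other cells: pigment cells (Dct, Pmel), vessels (Cdh5, Emcn, Icam2, Cldn5), red cells, platelets and their precursors (among them Alas2, Slc4a1, Car2, Hemgn, Clec1b), with Cited4 and the metallothioneins Mt1 and Mt2. In the strict classes Mt1 was 7.17, 4.68 and 6.32 against 11.7, 5.91 and 11.5 CPM, down from 844, 418 and 658 CPM in all low cells.

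The comparison of CD with WT inside Col2a1-high mesenchyme asks whether these cells differ when 1 Sox9 allele carries the premature stop codon. The genes that passed were mostly of blood and of single odd cells, and none belonged to the lists of cartilage, SOX or mesenchyme factor genes. Of 13072 genes tested, 30 were called by edgeR at an adjusted p under 0.05 (0.229%), 19 higher in CD (0.145%) and 11 lower (0.0841%). The split was 19 higher and 6 lower with RLE scaling and 15 and 1 with library totals only. The test assumes that the lone CD library varies like the WT pair, and it had 1 residual degree of freedom. On simulated counts it recovered 32.5% of genes changed 2-fold and 85.9% of genes changed 4-fold, so modest changes could be missed.

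The 7 haemoglobin genes made up the largest group of the higher calls. Hbb-y was 5985 CPM in CD against 2583 and 2527 in WT. A single CD cell held 22.4% of the Hbb-y UMIs of CD (12100 of 53930). The WT sums rested more on 1 cell each. It held 10207 of 10994 Hbb-y UMIs in WT replicate 1 and 12954 of 22755 in WT replicate 2. Other red cell genes that passed included Car2, Slc25a37, Blvrb and Slc4a1, with Car2 (carbonic anhydrase) at 48.7 CPM against 19.3 and 18.3 (log2 fold change 1.35, SE 0.21, adjusted p by edgeR = 0.000175). In the strict class Car2 was 3.17, 6.61 and 5.34 CPM. Without the 15, 4 and 7 members marked as doublets, 6 haemoglobin genes were called in the opposite direction, lower in CD, and were the only calls. Haemoglobin-rich members numbered 6, 1 and 2, and of the erythroid genes still tested without cells carrying markers of other types, 0 passed.

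Several other calls rested on few cells. Sst had 91, 0 and 2 UMIs, and 85 of the 91 were in 1 cell. Mrc1, a macrophage receptor, had 123, 0 and 8 UMIs, with 71 in 1 cell, and summed macrophage markers were 61.7, 1.64 and 50.3 CPM in members. Acta2 and Tagln, smooth muscle genes lower in CD, had 1, 91 and 4 and 52, 272 and 85 UMIs, with 90 and 212 in 1 cell of WT replicate 1. Igfbp2 had 467, 633 and 780 UMIs, of which 231 were in 1 cell of WT replicate 1; its log2 fold change was -1.19 (adjusted p by edgeR = 0.0036) in all members and -0.37 in the strict class. Of the 30 calls, 7 had at least 50% of the UMIs of the higher group in 1 cell. Ttr, a transport protein of choroid plexus and liver, had 0, 1202 and 0 UMIs and so came from 1 WT library. Hist1h2ap and Gm10076, lower in CD, were spread over 276, 150 and 374 and over 375, 181 and 429 members. Their log2 fold changes were -0.77 and -0.71 (adjusted p by edgeR 0.0253 and 0.0167). Both passed without cells carrying markers of other types but not in the strict class. Hist1h2ap had 4137, 2530 and 8465 UMIs and Gm10076 had 7566, 4676 and 14275, over summed depths of 9010425, 4255561 and 9004820. Scaled to depth, the WT libraries differed from each other by more than WT replicate 1 differed from CD for both genes. Eif3j2 had 22, 190 and 24 UMIs and was high in WT replicate 1 alone.

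Maf, a factor of chondrocytes, macrophages and other cells, was 25.2 CPM in CD against 10.3 and 9.66 in WT (log2 fold change 1.31, SE 0.26, adjusted p by edgeR = 0.00531). In the strict class it was 16.1, 9.36 and 5.48 CPM and did not pass (log2 fold change 1.12, adjusted p = 0.706). The macrophage markers given above also differed among the libraries, and their part in this result was not tested.

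In the strict class 2 genes were called, Oc90 and P2rx4. Oc90 is made by otic epithelium and encodes a protein of the otoconia, the crystals that sense gravity. Its level was 1.89 CPM in CD against 8.46 and 40.9 in WT (log2 fold change -3.81, SE 0.52, adjusted p by edgeR = 7.53e-06), and in the strict class it was 1.79, 8.26 and 35.8 CPM (log2 fold change -3.76, adjusted p = 0.0116). The WT libraries differed from each other by more than WT replicate 1 differed from CD. Low mesenchyme showed like values (1.96, 6.91 and 46.9 CPM; log2 fold change -3.83, adjusted p = 2.13e-09), and the difference between the classes was 0.00 (SE 0.72). Summed otic markers were 44.2, 45.4 and 87.4 CPM in members. That sum includes Oc90 itself, which made up most of the gap between WT replicate 2 and the other libraries. Of 8 otic genes tested outside the rule, Oc90 among them, the median log2 fold change was -0.47, against -0.00124 over all genes. Whether the other otic genes followed Oc90 was not tested. P2rx4, an ATP-gated channel, had 130, 5 and 19 UMIs, with 98 in 1 cell, and was 17.2, 0.275 and 2.25 CPM in the strict class (log2 fold change 3.41, adjusted p = 0.000641).

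**Figure D5:**
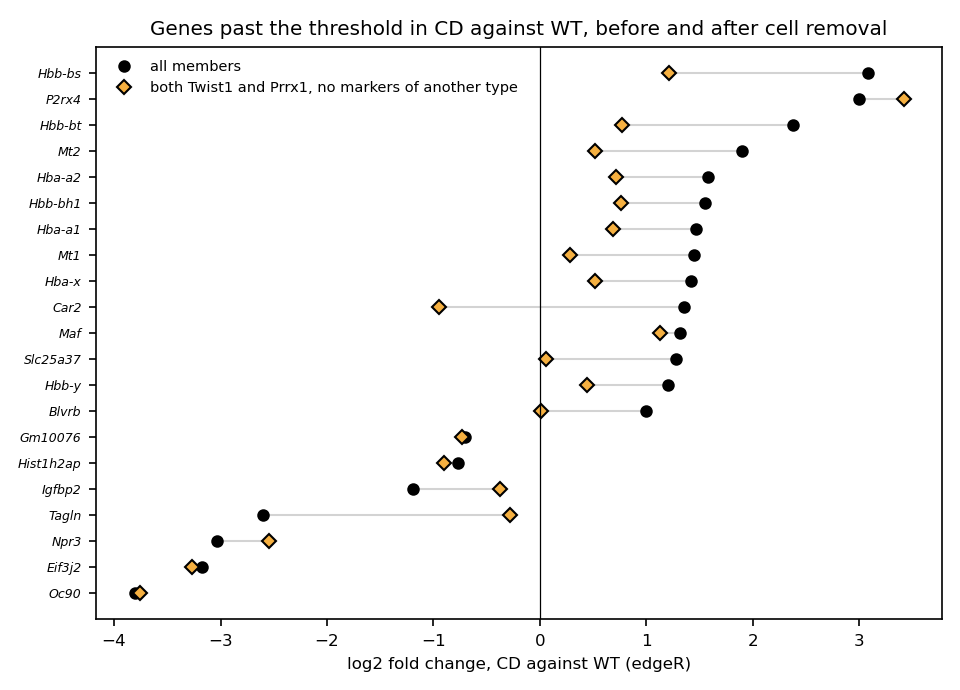
Log2 fold change of CD against WT from edgeR (horizontal axis) for 21 genes past the threshold that have CD UMIs and were also tested in the strict class; circles show all members and diamonds the strict class. The haemoglobins, Car2, Slc25a37, Blvrb, Mt1 and Mt2 lay nearer 0 or below it in the strict class, and Oc90 and P2rx4 hardly moved.

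The cartilage genes did not pass. The 5 collagens tested other than Col2a1, which the rule used, had 0 called in either direction and a median log2 fold change of -0.07, against -0.00124 over all genes. Col9a2 had the largest change among them, at 19.4 CPM in CD and 28.4 and 33.2 in WT (log2 fold change -0.70, SE 0.23, adjusted p by edgeR = 0.643). Both WT libraries lay above CD, and the gap between them was smaller than the gap to CD. Of 10 matrix proteins tested 0 were called, with a median of -0.15, and Vcan at 380, 458 and 345 CPM had CD between the WT libraries. Of 41 head mesenchyme factors tested outside the rule 0 were called; Pou3f4 was 61.2 CPM in CD against 89.8 and 86.7 (log2 fold change -0.55, SE 0.20, adjusted p = 0.831), and Tbx18 was 22.2, 21.1 and 5.77. Tcf15, a factor of somites and early sclerotome, was 13.4, 24.9 and 29.0 CPM (log2 fold change -1.04, SE 0.25, adjusted p = 0.064), just outside the threshold. Its list went the other way: of 7 sclerotome genes tested, 6 had a log2 fold change above 0 (median 0.75), and 0 were called. Of the 13 hedgehog, 18 FGF, 31 Wnt, 32 BMP and TGF-beta, 14 retinoic acid and 34 cell cycle genes tested, 0 were called. Only 0.229% of all 13072 genes tested were called, so 0 calls in lists this short say little about the listed genes.

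A test of the difference asked whether CD and WT differed in Col2a1-high mesenchyme in another way than in Col2a1-low mesenchyme. In low mesenchyme 44 of 14135 genes were called by edgeR (0.311%), 30 higher (0.212%) and 14 lower (0.099%), and with library totals only 3 were higher and 0 lower. The difference between the classes was called for 39 of 13972 genes (0.279%), 25 higher (0.179%) and 14 lower (0.1%). On simulated counts this test recovered 69.8% of 4-fold and 1.00% of 2-fold differences. The simulation gave both classes the spread of the members and no effect shared within a library, so its rates may not hold for these data. The genes named by the rule included Rspo3, Zic1, Col1a1, Sparc and Col4a2 in 1 direction and Epha5, Kcnmb2, Nav2, Sept3, Pantr1 and Pcdh17 in the other.

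Rspo3, a secreted amplifier of Wnt signalling, was 40.8, 41.8 and 27.2 CPM in members and 12.5, 34.0 and 27.3 CPM in low cells. CD was low only in the low class, where Rspo3 fell (log2 fold change -1.23, adjusted p by edgeR = 0.00338), and the difference between classes was 1.51 (SE 0.20, adjusted p = 0.000271). In the strict classes the levels were 44.1, 43.5 and 29.1 CPM against 26.5, 50.2 and 49.2, and the difference was 1.25 (SE 0.22, adjusted p = 0.000605). Zic1, a zinc finger factor of neural and mesenchymal precursors, was 117, 71.7 and 84.1 CPM in members and 61.5, 71.1 and 77.9 in low cells, with CD highest in the first class and lowest in the second (difference 0.79, SE 0.12, adjusted p = 0.00197; 0.80 in the strict classes, adjusted p = 0.000333). Col1a1, the collagen of bone and skin, was 62.2, 27.7 and 43.3 CPM in members and 30.1, 30.4 and 39.1 in low cells (difference 0.92, SE 0.17, adjusted p = 0.0123; 0.88 in the strict classes, adjusted p = 0.00725). DESeq2 called none of these 3, with adjusted p of 1.00 for each. When only cells with markers of other types were removed, without asking for both Twist1 and Prrx1, 0 genes were called and 443 had an unadjusted p under 0.05.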

How the data were processed

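The authors deposited UMI counts per gene and barcode from Cell Ranger 6.0 on mm39, per the submitters' processing notes (6.0.0 per the file headers), for 32285 features and 3 libraries made with kit version 3.1. The members and gene lists (22 of pathways, 13 of cell type markers) were chosen with earlier results of these data known, and bands and gene pairs after their values were seen. UMIs were summed per library and class. CD and WT were tested with edgeR 4.0.16 in R 4.3.3 (glmQLFit, TMM, filterByExpr, Benjamini-Hochberg over all genes tested, threshold 0.05), 1 CD against 2 WT libraries. The difference between classes was an interaction term with library as a block. Log2 ratios of classes used CPM with 0.5 added. Shares have exact (Clopper-Pearson) 95% intervals, for counting error only. Thinning drew 5000 UMIs per cell and left out shallower cells (0, 0 and 4 members, and 207, 113 and 488 Col2a1-low cells). Scrublet (scanpy 1.11.5, expected rate 5%) marked doublets, which were kept. The tests were checked on simulated counts. Between the 2 WT libraries, members' counts gave a chi-square of 6.76 per degree of freedom over 13239 genes, above sampling noise. Alternatives were RLE factors, library totals, DESeq2 1.42.0, no gene filter, no doublets, equal cells and depth, other gates and single WT libraries; removing cells with markers of other types was added after seeing the data.

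Genes are named by a rule: gate and SOX genes, cartilage genes at 5 CPM or more, up to 15 called genes each way at 10 CPM or more whose change exceeds the gap between WT libraries (with fewer than 5, the 5 of smallest p as values), up to 6 genes per other list, and up to 15 leading genes each way of high against low. Members of a list that separate classes or bands, and Fst, were named after their values were seen. So were Tcf15, Foxf2, the co-detected genes, Hist1h2ap, Gm10076 and Eif3j2. Some genes that met the rule are not reported here.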

Additional observations from a re-analysis of the deposited data

Results flagged for a closer look

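The genotype difference between Col2a1-high and Col2a1-low mesenchyme passed the edgeR interaction test for 15 genes under the naming rule; each value is the log2 fold change of CD against WT in high cells minus that in low cells. It was above 0 for Rspo3 (1.51), the metallothioneins Mt2 (1.33) and Mt1 (0.77), Col1a1 (0.92), Zic1 (0.79), the basement membrane collagen gene Col4a2 (0.65), Car2 (0.65), Sparc (0.57) and the growth factor gene Igf2 (0.46). It was below 0 for Epha5 (-1.91), Kcnmb2 (-1.80), Nav2 (-1.26), Sept3 (-0.94), the long RNA Pantr1 (-0.88) and Pcdh17 (-0.86). In the strict classes Rspo3, Zic1 and Col1a1 were called again, and P2rx4 too.

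Markers of other cells differed between these classes. Summed neuronal markers were 190, 109 and 349 CPM in members and 1358, 836 and 1381 in low cells, and summed erythroid genes 15249, 5991 and 5594 against 107064, 64620 and 69495, in CD and the WT replicates. Epha5 was 55.3, 19.4 and 31.2 CPM in low cells and 1.88, 2.95 and 2.03 CPM in strict low cells. Kcnmb2 was 34.9, 22.6 and 32.0 CPM in low cells and 1.64, 0.984 and 0.848 in strict low cells. The part of these cells in the remaining values was not tested.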

How the results depend on the processing

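No paired analysis was possible because the labels do not link the CD library to either WT library. Members gave 30 called genes, and the count was 16 with library totals only, 8 with DESeq2, 51 with no gene filter (30 shared), 6 without doublets, 89 at equal cells and UMIs (43 higher and 46 lower, 26 shared with the 30), 15 with both Twist1 and Prrx1, 6 at 3 or more Col2a1 UMIs, 57 with no otic UMI (48 higher and 9 lower, 26 shared), 3 with no limit on the Foxd1 set and 15 with the thinned gate (11 shared); 24 were called at 10 or more Col2a1 UMIs, 8 higher and 16 lower, with 4 shared and 0 haemoglobins; with cells carrying other markers removed it was 18, of which 11 were among the 30, and 2 in the strict class. All 6 calls without doublets were lower in CD. The 44 calls in low mesenchyme became 27 with RLE factors, 3 with totals, 4 with DESeq2, 5 without doublets, 0 at equal cells and UMIs (168 genes at an unadjusted p under 0.05 in edgeR; DESeq2 was not run on that set), 0 with other-marker cells removed (127 at an unadjusted p under 0.05) and 2 in the strict class. The 39 calls of the difference between classes became 6 with DESeq2, 113 with no filter, 8 in thinned cells, 0 with other-marker cells removed and 14 in the strict classes, of which 4 were shared. The cause of these shifts was not tested. With 1 CD library, its genotype and its pool of embryos cannot be told apart, and sparse genes in 181 to 430 members rest on few UMIs.

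Shares of mesenchyme in CD, WT replicate 1 and WT replicate 2 were 40.8%, 43.8% and 37.3% at 3 or more Col2a1 UMIs and 3.42%, 3.41% and 1.78% at 10 or more; thinning gave 21.7% in WT replicate 2. Over cells of at least 5000 UMIs, not thinned and added after seeing the data, they were 24.0%, 25.8% and 21.3%. Thinned shares of members with Sox9 were 79.2%, 65.2% and 66.2%, and with Pou3f4 20%, 33.1% and 25.6%. The median log2 ratio of cartilage genes, high over low, went from 1.37, 1.06 and 0.98 to 1.09, 0.80 and 0.70 when thinned, 0.63, 0.88 and 0.37 without other-marker cells and 0.49, 0.77 and 0.43 in the strict classes. For Sox9 it went from 1.72, 1.26 and 1.49 to 1.30, 0.97 and 1.23, to 0.79, 0.43 and 0.80, and to 0.78, 0.46 and 0.87. The log2 ratio of Sox9 between bands in WT replicate 1 went from 0.42 to -0.078 when thinned. Thinned band ratios of other genes that moved by more than the spread between libraries were 0.52, 0.99 and 0.77 for Col9a1 and 0.85, 0.86 and 0.52 for Pou3f4, and 0.23 for Vcan, 1.38 for Tbx1 and 1.07 for Foxc2 in WT replicate 1, with 1.49 for Foxc2 in WT replicate 2; all kept their sign.

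Values that changed sign against all members were mostly small. At 10 or more Col2a1 UMIs, CD against WT was 0.052 for Sox6, 0.043 for Col11a1, 0.22 for Vcan, -0.44 for Lum and 0.0044 for Igfbp2. At 3 or more it was -0.12 for Lum and 0.0049 for Edil3. The thinned gate gave 0.18 for Col11a1, 0.011 for Vcan and -0.11 for Lum, and equal cells and UMIs gave 0.063 for Col11a1, -0.10 for Lum and -0.11 for P2rx4. Lum was -0.022 with no otic UMI and -0.056 with no limit on the Foxd1 set. Leaving out either WT replicate gave a range of -0.18 to 0.10 for Col9a1, -0.28 to 0.10 for Vcan, -1.08 to 0.15 for Col9a3, -0.40 to 0.55 for Lum and -0.44 to 0.063 for Sox6. Without doublets, Car2 was -2.56, Slc25a37 -0.66 and Blvrb -0.48; Car2 was -0.89 without other-marker cells and -0.94 in the strict class. For the difference between classes, dropping doublets gave -2.59 for Mt2, -2.83 for Mt1 and -3.26 for Car2. Dropping other-marker cells gave -0.14 for Mt2, -0.48 for Mt1, -1.76 for Car2, 0.61 for Epha5 and 0.10 for Pcdh17, and the strict classes gave -0.0087 for Mt1, -1.40 for Car2, 0.24 for Epha5 and 0.23 for Nav2. Tcf15 in members passed with no gene filter (edgeR adjusted p = 0.0382), with no otic UMI (0.0394) and without other-marker cells (0.0163), but not in the strict class (0.273).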

Other observations

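The 2 WT libraries differed within Col2a1-high mesenchyme in Foxc2, Tbx18, Ptch1 and Fst. Foxc2 was 28.2 CPM in WT replicate 1 and 11.4 in WT replicate 2, Tbx18 was 21.1 and 5.77, Ptch1 was 74.5 and 32.9, and Fst was 55.5 and 11.4. In each case CD lay between the WT values or above both (25.2, 22.2, 67.5 and 34.0 CPM). After thinning to 5000 UMIs, Foxc2 was detected in 10.4% of CD members and in 4.46% of those of WT replicate 2, with WT replicate 1 just above CD. Pou3f4, which was found with Tbx1 in the same cells, was nearly equal in the WT libraries. No test bears on a difference between single libraries.

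Hoxa2, an identity gene of the hindbrain and of pharyngeal arch crest, was present in members at 56.5, 40.4 and 38.4 CPM, in CD and WT replicates 1 and 2, and in 57.6%, 43.6% and 40.7% of them. Its strict high sums (62.6, 43.2 and 40.9 CPM) and strict low sums (65.0, 59.1 and 48.6 CPM) overlapped. The edgeR test of CD against WT in members gave a log2 fold change of 0.50 (SE 0.19), which did not pass.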
